A study of Mus musculus with 12 samples.

Results

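The metallothionein and zinc transport genes Mt1, Mt2, Mtf1, Slc30a1, Slc39a6, Slc39a10 and Slc39a14 were described across 3 mouse cell lines of melanocyte origin, each with and without SX-682, a small-molecule inhibitor of the chemokine receptors CXCR1 and CXCR2. The members were the rows of the count table that carry these 7 gene symbols, 7 of 34513 genes, and all 7 were among the 18338 genes with enough counts to be tested. The lines were MelanA, which the labels call nontumorigenic, and the melanoma lines B16F0 and B16F10, of which the study treats B16F10 as metastatic. Each line had 2 libraries without treatment (controls) and 2 libraries with SX-682, which gives 6 groups and 12 libraries. The labels give neither the dose and the length of exposure of these cultures nor a vehicle for the controls, and they do not say whether the libraries of a group came from separate cultures, so that p-values measure only the spread between libraries.

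Cells hold free zinc at a very low level. Transporters of the Slc39 (ZIP) family bring zinc into the cytosol, transporters of the Slc30 (ZnT) family take it out of the cytosol, and the small cysteine-rich metallothioneins Mt1 and Mt2 bind zinc, copper and cadmium. The zinc finger factor MTF1 senses zinc, binds metal response elements in DNA, and is known to raise Mt1, Mt2 and the plasma membrane exporter Slc30a1 and to lower the importer Slc39a10 when zinc is plentiful.

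The sequences before the annotated starts of Mt1, Mt2 and Slc30a1 are shown because these 3 genes are the textbook targets of MTF1 and had the largest rises in B16F10 among the 7 genes. The core of the metal response element was searched on both strands as TGCACNC and TGCGCNC, and its matches are in capitals. The sequences are those of RefSeq on build GRCm38.p6, on the plus strand, and end where the first transcript of the gene begins in RefSeq or in GENCODE M21, whichever is earlier. They cover chr8:94178839-94179081 for Mt1, chr8:94172368-94172617 for Mt2 and chr1:191906531-191906766 for Slc30a1.
Mt1: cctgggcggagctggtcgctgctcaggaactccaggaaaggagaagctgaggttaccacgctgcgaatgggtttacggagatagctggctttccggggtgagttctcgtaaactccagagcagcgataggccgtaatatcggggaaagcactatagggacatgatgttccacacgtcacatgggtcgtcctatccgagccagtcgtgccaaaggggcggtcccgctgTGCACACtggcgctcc
Mt2: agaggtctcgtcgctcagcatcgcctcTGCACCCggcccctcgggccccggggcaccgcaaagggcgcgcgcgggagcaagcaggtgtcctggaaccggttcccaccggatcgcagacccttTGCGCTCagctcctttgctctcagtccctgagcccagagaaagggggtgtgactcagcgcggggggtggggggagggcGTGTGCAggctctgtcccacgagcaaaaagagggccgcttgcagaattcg
Slc30a1: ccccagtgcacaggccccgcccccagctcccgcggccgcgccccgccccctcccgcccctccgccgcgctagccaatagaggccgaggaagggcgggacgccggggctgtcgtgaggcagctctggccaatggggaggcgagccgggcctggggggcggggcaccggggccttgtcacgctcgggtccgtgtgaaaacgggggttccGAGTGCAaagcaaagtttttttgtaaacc
In the 250 bases before the RefSeq start, Mt1 held 1 core, Mt2 held 3 and Slc30a1 held 1. Of 32851 windows of this length in the RefSeq table, 21.4% held at least 1 core and 1.26% at least 3. The windows of Mtf1 and Slc39a10 held 0 cores, which says only that these letters are not in those windows. Slc39a6 and Slc39a14 had no window in the table.

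Further cores of both metallothionein genes lay in the first bases that GENCODE M21 counts as transcribed. Mt1 has later annotated starts in its first exon, and its 4 cores in the first 150 transcribed bases lie between the first of these starts and the last. Each is printed with 4 bases on either side because as many cores as this are rare at a start.
Mt1, chr8:94179087-94179101: gctcTGCACTCcgcc
Mt1, chr8:94179105-94179119: aaagTGCGCTCggct
Mt1, chr8:94179169-94179183: tgctGGGTGCAaacc
Mt1, chr8:94179183-94179197: ccttTGCGCCCggac
Mt2 held 3 cores in its first 150 transcribed bases and Slc30a1 held 1. Of 22352 principal transcripts, 16.6% held at least 1 core in these bases, 0.474% at least 3 and 0.0582% at least 4. Mt1, Mt2 and Slc30a1 were shown as known targets of MTF1, so these shares and those of the windows above are no test. The other members (Mtf1, Slc39a6, Slc39a10 and Slc39a14) held 0. A match to these letters is a description of the sequence, and whether any factor binds there was not measured.

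**Figure D1:**
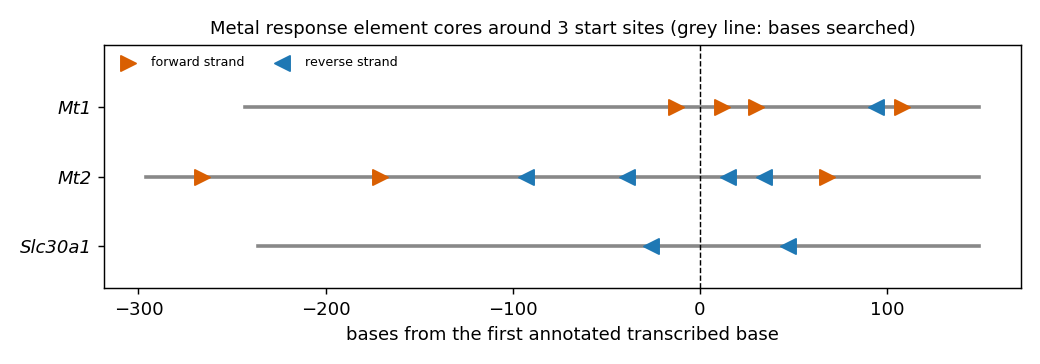
Positions of metal response element cores in bases from the first base that GENCODE M21 counts as transcribed, for Mt1, Mt2 and Slc30a1. Arrowheads point right for the forward and left for the reverse strand, and grey lines are the bases searched. Mt1 held 5 cores in all, Mt2 held 7 and Slc30a1 held 2.

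The libraries held 48876982 to 85322092 counts, and a floor of 3 counts corresponded to 0.0330 to 0.0623 CPM (counts divided by the scaled library size, times 1e+06). The labelled cell type was checked with 8 melanocyte markers. Their summed level was 1344 to 1374 CPM in the MelanA controls, 18580 to 18665 CPM in the B16F0 controls and 24438 to 24467 CPM in the B16F10 controls. With SX-682 it was 1346 to 1355 CPM in MelanA, 15769 to 15957 CPM in B16F0 and 14945 to 15186 CPM in B16F10, so that it was lower than in the controls in both B16 lines, and the part of this in the responses below was not tested. In the MelanA controls the means were 669.9 CPM for Sox10, 354.5 for Dct, 116.4 for Mlana, 106.8 for Tyrp1, 102.0 for Mitf, 8.11 for Pmel, 0.825 for Tyr and 0.0857 for Kit, and Kit was at 0 in both B16F10 controls. In the B16F0 controls the means were 452.5 CPM for Sox10, 4511 for Pmel and 514.9 for Tyr. The markers therefore bear out the label of MelanA only in part, and the identity or state of that line was not tested. The 5 fibroblast markers summed to 107 to 108 CPM in the MelanA controls against 8.43 to 16.7 CPM in the B16 controls, and keratinocyte, leukocyte and endothelial markers stayed at or below 7.19 CPM. The part of these marker differences in the line differences below was not tested. In bulk RNA, fewer cells that express a gene and less RNA per cell cannot be told apart.

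Mt1 was the most abundant of the 7 genes per kb of the principal transcript in each line. It was far lower in MelanA than in B16, and it rose with SX-682 in MelanA and B16F10 but not in B16F0. Its gene lies on chr8:94179082-94180327 on the plus strand, 5513 bases after the end of Mt2. Mt1 was at 39.5 and 42.3 CPM in the MelanA controls and at 82.1 and 72.8 CPM with SX-682. In B16F0 it was at 241.7 and 240.8 CPM in the controls and at 221.0 and 223.9 CPM with SX-682. In B16F10 it was at 306.4 and 316.8 CPM in the controls and at 789.3 and 784.3 CPM with SX-682. The control and SX-682 libraries did not overlap in any line, with SX-682 higher in MelanA and B16F10 and lower in B16F0.

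The fitted log2 fold change of Mt1 with SX-682 was 0.92 ± 0.039 (SE) in MelanA (adjusted p = 6.3e-18), 1.34 ± 0.033 in B16F10 (adjusted p = 6.9e-24) and -0.12 ± 0.034 in B16F0 (adjusted p = 0.0047), all from the quasi-likelihood test of edgeR and adjusted by Benjamini-Hochberg over all genes tested. The fall in B16F0 was small, and it did not pass with DESeq2, where the adjusted p was 0.13. The response differed between B16F10 and B16F0 by 1.45 (95% interval 1.36 to 1.55), a ratio of 2.74 between the fold changes. In the untreated lines Mt1 was 5.90-fold higher in B16F0 and 7.61-fold higher in B16F10 than in MelanA, and 1.29-fold higher in B16F10 than in B16F0. Ranked by level per length as listed in the count table, Mt1 went from place 179 to place 61 of 18338 genes in B16F10 with SX-682, and from 1552 to 683 in MelanA. By this length Slc39a6, at place 1330, lay above Mt1 in the MelanA controls.

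Mt2, the other widely expressed metallothionein, had the largest rise of the 7 genes, and it was in B16F10. Mt2 was at 6.10 and 5.82 CPM in the B16F10 controls and at 50.1 and 57.0 CPM with SX-682. In B16F0 it was at 4.50 and 4.42 CPM in the controls and at 5.74 and 5.23 CPM with SX-682. In MelanA it had 0 and 14 counts in the controls and 11 and 21 counts with SX-682, all of them at or below 0.280 CPM. The groups of B16F10 lay far apart, and those of B16F0 lay close to each other without overlap. In MelanA the control library with 14 counts and the SX-682 library with 11 counts were both at 0.154 CPM.

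The log2 fold change of Mt2 was 3.17 ± 0.12 in B16F10, an 8.98-fold rise (adjusted p = 7.0e-20, edgeR), and 0.30 ± 0.14 in B16F0 (adjusted p = 0.072). In MelanA it was 1.45 ± 0.58 with an adjusted p of 0.040, a call that rested on single libraries. It did not pass in a separate fit of the MelanA libraries (adjusted p = 0.14). Without MelanA control replicate 1, the library with 0 counts, it was 0.51 (adjusted p = 0.46), without MelanA control replicate 2 it was 6.88, and without MelanA SX-682 replicate 2 it was 0.96 (adjusted p = 0.34). The response in B16F10 exceeded that in B16F0 by 2.86 (95% interval 2.49 to 3.23). It exceeded that in MelanA by 1.72 (0.31 to 3.13), which did not pass after adjustment (adjusted p = 0.055), and this difference was 2.66 without MelanA control replicate 1 (adjusted p = 0.00041) and -3.71 without MelanA control replicate 2 (0.17). It passed in 7 of 18 alternative settings, among them DESeq2 (1.68, adjusted p = 0.0021) and the fit without the count filter (1.70, adjusted p = 0.026). Untreated Mt2 was higher than in MelanA by 5.79 on the log2 scale in B16F0 and by 6.20 in B16F10, with values of 4.84 and 5.26 without MelanA control replicate 1 and of 11.21 and 11.64 without MelanA control replicate 2.

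The level of Mt2 is uncertain because most of its exons lie opposite another gene. Mt2 covers chr8:94172664-94173568 on the plus strand, and 73.5% of its exonic bases are also exonic bases of the antisense long noncoding gene Gm45774. Whether reads were counted by strand is not given in the sources used here, and without strand the reads of the pair cannot be told apart. Gm45774 was counted 98 and 107 times in untreated B16F0 and 110 and 107 times after SX-682. In untreated B16F10 it was counted 64 and 77 times, compared with 62 and 72 after SX-682, and in any MelanA library at most 1 time. It was at 0.972 to 1.16 CPM (without scaling between libraries) in the B16F10 libraries, in which Mt2 differed 8.98-fold. No stretch of 50 bases of the principal Mt1 transcript occurred in another gene's transcripts, those of Mt2 included.

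Mt2 made up a small share of the counts of both metallothioneins, and the share was highest in B16F10 with SX-682. In the B16F10 controls it was 1.95% (Wilson 95% interval 1.76 to 2.16) and 1.80% (1.63 to 1.99) of the summed Mt1 and Mt2 counts, and with SX-682 it was 5.97% (5.76 to 6.17) and 6.77% (6.55 to 7.0). In B16F0 it was 1.83% and 1.80% in the controls and 2.53% and 2.28% with SX-682. In MelanA it did not exceed 0.383% in any library, and the control library with 0 of 3409 counts allows up to 0.113%. These intervals cover counting error only, and the uncertainty about the antisense gene applies to the shares too.

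Slc30a1, which exports zinc across the plasma membrane, was the member that rose in all 3 lines. It lies on chr1:191906767-191913247 on the plus strand. It was at 26.3 and 24.2 CPM in the MelanA controls and at 46.5 and 46.6 CPM with SX-682. In B16F0 it was at 4.62 and 4.88 CPM in the controls and at 12.9 and 12.6 CPM with SX-682. In B16F10 it was at 6.60 and 5.57 CPM in the controls and at 29.8 and 32.4 CPM with SX-682. In each line both SX-682 libraries lay above both controls, and the B16F10 libraries with SX-682 exceeded the MelanA controls.

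The rise of Slc30a1 was 1.84-fold in MelanA (log2 0.88 ± 0.060, adjusted p = 2.8e-13, edgeR), 2.69-fold in B16F0 (1.43 ± 0.087, adjusted p = 1.8e-14) and 5.12-fold in B16F10 (2.36 ± 0.077, adjusted p = 5.5e-21). Each pair of lines differed in this response: by 0.54 between B16F0 and MelanA (adjusted p = 0.00014), by 0.93 between B16F10 and B16F0 (adjusted p = 4.0e-07) and by 1.47 between B16F10 and MelanA (adjusted p = 5.4e-13). Untreated, Slc30a1 was 5.33-fold lower in B16F0 and 4.16-fold lower in B16F10 than in MelanA. An antisense gene, 1700034H15Rik, shares 8.9% of the exonic bases of Slc30a1 and had at most 23 counts in any library.

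**Figure D2:**
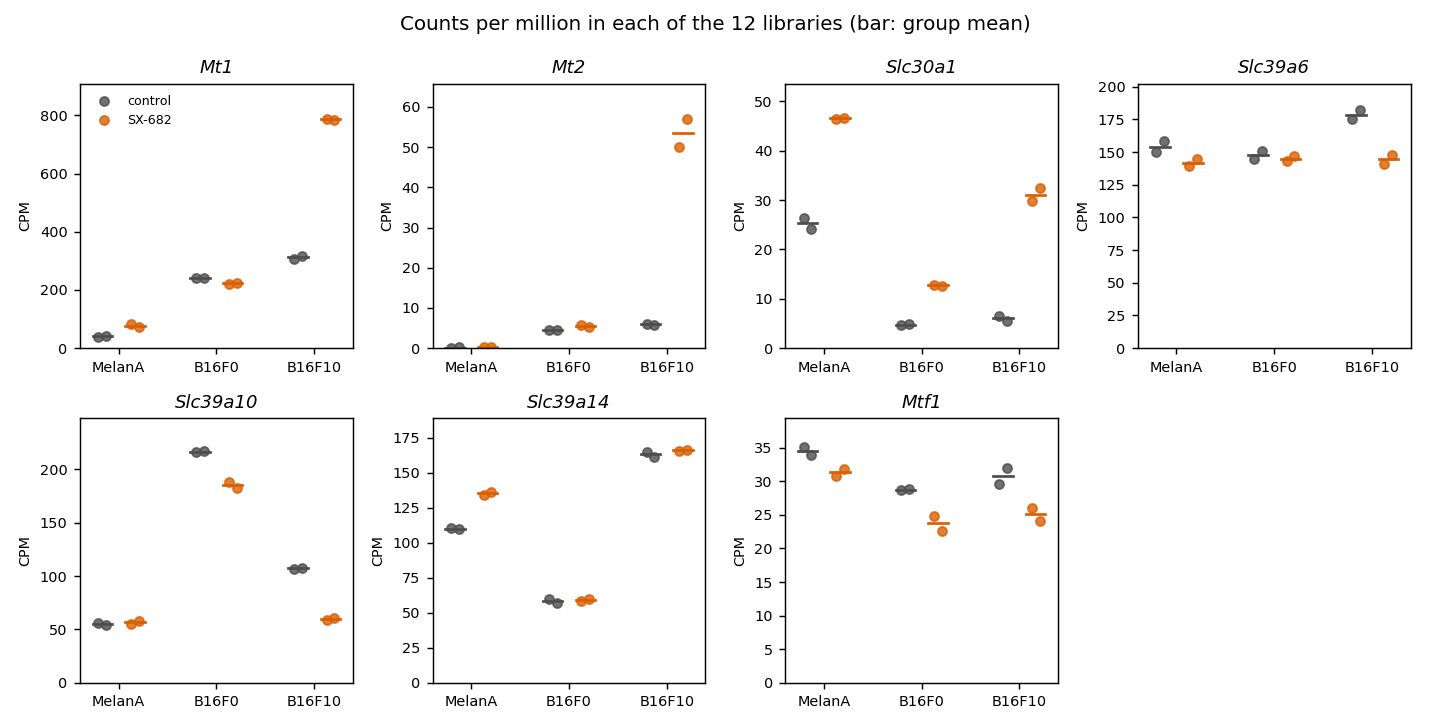
CPM of the 7 genes (y axes from 0) in each of the 12 libraries, with 2 points for each group and a bar at the group mean, by line and treatment. Slc30a1 is higher with SX-682 in all 3 lines, Mt1 in MelanA and B16F10, and Mt2 most clearly in B16F10, where the SX-682 libraries are at 50.1 and 57.0 CPM.

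Slc39a10, a zinc importer of the plasma membrane, moved the other way. It lies on chr1:46807544-46892852 on the minus strand. It was at 106.9 and 107.7 CPM in the B16F10 controls and at 58.7 and 60.5 CPM with SX-682. In B16F0 it was at 216.0 and 217.1 CPM in the controls and at 187.9 and 183.0 CPM with SX-682, and in MelanA at 56.1 and 53.8 CPM and at 54.9 and 58.4 CPM. The groups were apart in both B16 lines, with SX-682 lower, and overlapped in MelanA, where all 4 libraries lay below the SX-682 libraries of B16F10.

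Slc39a10 fell by 0.85 on the log2 scale in B16F10 (1.80-fold, SE 0.035, adjusted p = 1.2e-18, edgeR) and by 0.22 in B16F0 (1.17-fold, SE 0.031, adjusted p = 4.5e-07). In MelanA the change was 0.04 (95% interval -0.03 to 0.12, adjusted p = 0.32). The response in B16F10 was lower than in MelanA by 0.89 (0.79 to 0.99) and lower than in B16F0 by 0.63 (0.53 to 0.72). Untreated, Slc39a10 was 3.94-fold higher in B16F0 and 1.95-fold higher in B16F10 than in MelanA, and 2.02-fold lower in B16F10 than in B16F0.

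Slc39a14, an importer of zinc that also carries iron and manganese, changed with SX-682 in MelanA and not measurably in either B16 line. It lies on chr14:70303469-70351425 on the minus strand. It was at 110.6 and 109.8 CPM in the MelanA controls and at 134.3 and 136.3 CPM with SX-682. In B16F0 it was at 60.0 and 56.9 CPM in the controls and at 58.5 and 59.9 CPM with SX-682, and in B16F10 at 164.9 and 161.6 CPM and at 166.0 and 166.3 CPM. The rise in MelanA was 1.23-fold (log2 0.30 ± 0.030, adjusted p = 1.1e-09, edgeR). In B16F0 the change was 0.02 (95% interval -0.05 to 0.09) and in B16F10 0.03 (-0.04 to 0.09). Untreated B16F10 exceeded untreated B16F0 2.79-fold, and MelanA lay between them.

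Slc39a6, an importer known from estrogen-responsive and migrating cells, was the most even of the transporters. It lies on chr18:24579881-24603817 on the minus strand. It was at 149.8 and 158.2 CPM in the MelanA controls and at 139.1 and 144.5 CPM with SX-682, at 144.4 and 150.7 CPM and at 143.4 and 146.6 CPM in B16F0, and at 175.3 and 181.8 CPM and at 141.0 and 147.7 CPM in B16F10. The groups were apart in MelanA and B16F10 and overlapped in B16F0. It fell by 0.31 on the log2 scale in B16F10 (SE 0.033, adjusted p = 3.2e-09, edgeR) and by 0.12 in MelanA (SE 0.032, adjusted p = 0.0028). The fall in MelanA did not pass without MelanA control replicate 2 (-0.08, adjusted p = 0.096) or without MelanA SX-682 replicate 1 (-0.08, adjusted p = 0.11). In B16F0 the change was -0.03 (95% interval -0.09 to 0.04). Untreated levels of MelanA and B16F0 did not differ past the threshold (-0.06, adjusted p = 0.083), but the difference passed in 5 of 19 alternative settings: with replicate number added as a block (adjusted p = 0.039), DESeq2 (0.015), RLE scaling (0.010) or 10 counts in every library (0.0042), and without MelanA control replicate 1 (0.0096). Untreated B16F10 was 1.16-fold above MelanA.

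Mtf1, which encodes the zinc-sensing factor, had a small fall in each line. It lies on chr4:124802104-124849800 on the plus strand. It was at 35.1 and 33.8 CPM in the MelanA controls and at 30.8 and 31.8 CPM with SX-682, at 28.6 and 28.8 CPM and at 24.8 and 22.7 CPM in B16F0, and at 29.6 and 31.9 CPM and at 26.1 and 24.1 CPM in B16F10. Both SX-682 libraries lay below both controls in each line. The log2 fold changes were -0.14 (adjusted p = 0.034, edgeR), -0.27 (adjusted p = 0.00024) and -0.29 (adjusted p = 7.4e-05) in MelanA, B16F0 and B16F10, and the differences among lines did not pass (adjusted p = 0.19). The call in MelanA was lost with DESeq2 (adjusted p = 0.089), without the count filter (0.068), and without single libraries: MelanA control replicate 1 (0.23), MelanA SX-682 replicate 1 (0.25) or 2 (0.077), B16F0 control replicate 1 (0.059) and B16F10 control replicate 1 (0.051) or 2 (0.051). The gene 1110065P20Rik shares 8.1% of the exonic bases of Mtf1 on the other strand and had a higher CPM (without scaling between libraries) with SX-682 than in the controls of each line, for example 15.6 and 16.3 against 11.8 and 11.8 in B16F10. Its part in the fall was not tested.

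**Figure D3:**
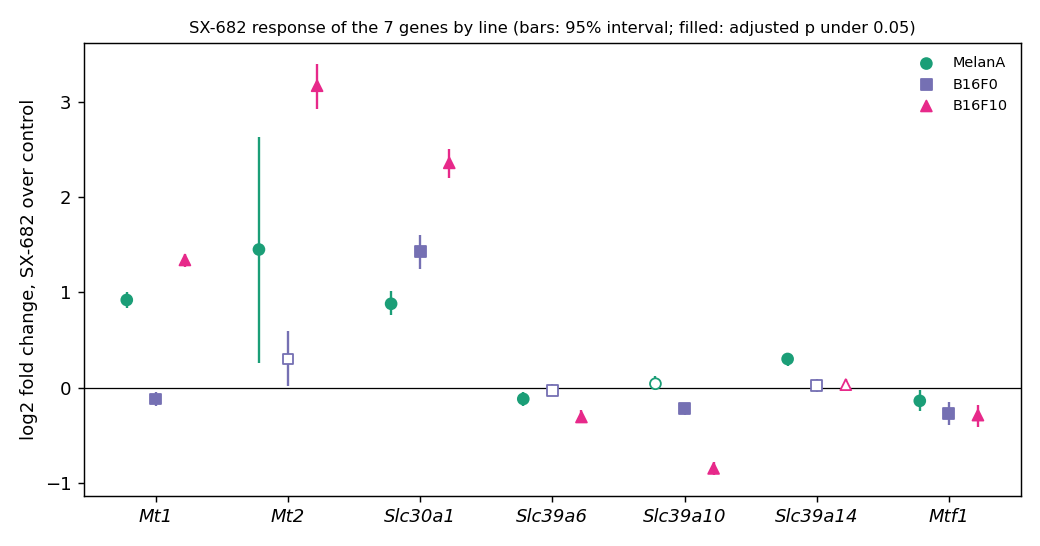
Log2 fold change of the 7 genes, SX-682 over control, with its 95% interval, in MelanA (circles), B16F0 (squares) and B16F10 (triangles). Filled symbols had an adjusted p under 0.05. Mt1, Mt2 and Slc30a1 are highest in B16F10, at 1.34, 3.17 and 2.36, and Slc39a10 is lowest there, at -0.85.

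Counted over the 7 genes, 4 rose (Mt1, Mt2, Slc30a1 and Slc39a14) and 2 fell (Slc39a6 and Mtf1) in MelanA, where 23.4% and 24.7% of all genes tested rose and fell. In B16F0, 1 rose (Slc30a1) and 3 fell (Mt1, Slc39a10 and Mtf1), against 25.1% and 25.0% of all genes. In B16F10, 3 rose (Mt1, Mt2 and Slc30a1) and 3 fell (Slc39a6, Slc39a10 and Mtf1), against 25.5% and 25.3% of all genes. The counts of members are therefore read beside these shares, and the sizes are given too: in B16F10, 1.93% of genes tested rose as far as Mt2, 3.38% as far as Slc30a1 and 6.94% as far as Mt1, and 9.79% fell as far as Slc39a10. The response differed between B16F0 and MelanA for 4 members (34.4% of all genes), between B16F10 and MelanA for 5 (33.8%), between B16F10 and B16F0 for 5 (30.3%) and among the 3 lines for 6 (47.4%). Among the untreated lines, 6 members differed between B16F0 and MelanA (75.9% of all genes), 7 between B16F10 and MelanA (74.2%) and 6 between B16F10 and B16F0 (62.0%). Without B16F10 control replicate 1 the last count was 4, since Mt2 (0.39, adjusted p = 0.051) and Slc30a1 (0.24, adjusted p = 0.080) did not pass. These comparisons share control libraries and are not independent of each other.

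Set side by side per kb of the principal transcript, Mt1 led the 7 genes in every group. In the B16F10 controls its level was 558 to 577 CPM per kb, followed by Slc39a6 (45.2 to 46.8), Slc39a14 (32.8 to 33.5), Slc39a10 (19.4 to 19.6), Mt2 (11.4 to 11.9), Mtf1 (3.88 to 4.18) and Slc30a1 (1.06 to 1.26). With SX-682 in B16F10, Mt2 moved to the second place at 98.0 to 111.5 CPM per kb and Slc30a1 passed Mtf1 at 5.69 to 6.18. The level and the place of Mt2 are uncertain because of its antisense gene. In the B16F0 controls Slc39a10 (39.3 to 39.5 CPM per kb) and Slc39a6 (37.2 to 38.8) lay close together, as did Slc30a1 (4.62 to 5.02) and Mtf1 (4.43 to 4.61) in the MelanA controls. Library ranges of neighbours in these orders did not overlap in any group, although the order depends on the length chosen. By the length listed in the count table, Slc39a6 (37.8 CPM per kb) exceeded Mt1 (32.8) in the MelanA controls.

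**Figure D4:**
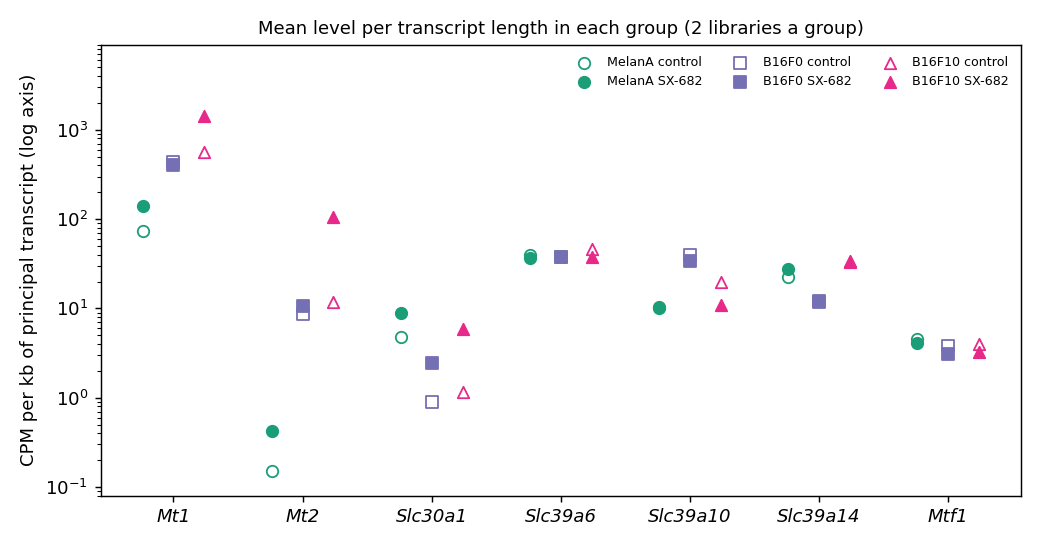
Mean CPM per kb of the principal transcript (log axis) of the 7 genes in each of the 6 groups of 2 libraries, with circles for MelanA, squares for B16F0 and triangles for B16F10, open for controls and filled for SX-682. Mt1 lies above the other genes in every group, and Mt2 in B16F10 moves from 11.7 to 104.7. The level of Mt2 is uncertain because of its antisense gene.

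Over the 12 libraries, the log2 levels of Mt1 and Mt2 had a Pearson r of 0.96, and those of Slc30a1 and Slc39a10 an r of -0.83. Slc30a1 and Mt1 had an r of -0.32 over libraries in which untreated MelanA was high in Slc30a1 and low in Mt1. Among 11686 genes, patterns most similar to those of the members included Bbs2 (r = 0.989) for Mt1, and were Itgb1bp1 (0.979) and Tmem231 (0.969) for Mt2, and 2610035D17Rik (0.994) and Jdp2 (0.990) for Slc30a1. For Slc39a10 they were Hyou1 (0.996) and Adam9 (0.995), for Slc39a14 Clptm1 (0.994) and Rce1 (0.992), for Slc39a6 Bach1 (0.952) and Lsm8 (0.951), and for Mtf1 Ackr3 (0.975) and Ythdf3 (0.972). These are descriptions over 6 groups that share lines and treatments.

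Bbs2 is also a neighbour of the metallothionein genes, 73736 bases before Mt2 on the same chromosome. Within 250 kb of Mt1 and Mt2, 14 other genes were tested, of which 2 rose and 3 fell in MelanA (23.4% and 24.7% of all genes), 4 rose and 4 fell in B16F0 (25.1% and 25.0%), and 4 rose and 1 fell in B16F10 (25.5% and 25.3%). Bbs2, which encodes a subunit of a complex that carries cargo in cilia, rose by 0.59 on the log2 scale in B16F10 (adjusted p = 5.2e-10, edgeR) and by 0.32 in MelanA, and Herpud1, a gene of the endoplasmic reticulum stress response 206111 bases away, rose by 1.31 in B16F10, 1.32 in MelanA and 0.55 in B16F0. Herpud1 was picked after its values were seen. The nearest metallothionein, Mt3, which is known mainly from brain, was counted 41 and 41 times in untreated B16F10, 26 and 18 times after SX-682 and no more than 6 times in the other libraries. Its change in B16F10 was -0.84 (adjusted p = 0.20), and Mt4, a gene of stratified epithelium, had too few counts to be tested.

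The counts of the wider families are to be read beside the shares of all genes that rose and fell, which were 23.4% and 24.7% in MelanA, 25.1% and 25.0% in B16F0 and 25.5% and 25.3% in B16F10. The lists were chosen with earlier results of these data known, so their counts are descriptions only. Of 9 other Slc30 exporters, 7 were tested. In MelanA 1 rose (Slc30a6), in B16F0 2 rose (Slc30a3 and Slc30a4) and 5 fell, and in B16F10 1 rose (Slc30a4) and 5 fell, and the 5 that fell were Slc30a2, Slc30a5, Slc30a6, Slc30a7 and Slc30a9 in both B16 lines. The median log2 fold change of the 7 was 0.03, -0.27 and -0.13 in MelanA, B16F0 and B16F10, beside 0.000 for all genes tested in each line. Slc30a2, which loads zinc into vesicles, was at 1.72 and 2.14 CPM in the B16F0 controls and at 0.789 and 0.935 CPM with SX-682, and at 2.20 and 2.002 CPM and at 0.577 and 0.838 CPM in B16F10. Its groups were apart in both, with log2 fold changes of -1.17 (adjusted p = 0.0015, edgeR) and -1.57 (adjusted p = 5.6e-05). Slc30a3 was not counted in either B16F0 control (0 and 0) and was counted 7 and 8 times with SX-682, so its level was at least 3.22-fold higher (taking 3 counts per library as the floor), and with this bound in place of the fitted value the list's median stayed at -0.27. The exporters of highest untreated level per length were Slc30a5 and Slc30a4, both of intracellular membranes, and Slc30a4 rose by 0.13 in B16F0 and 0.26 in B16F10. Single libraries decided the rise of Slc30a6 in MelanA (adjusted p = 0.12 without control replicate 1 and 0.23 without SX-682 replicate 1), that of Slc30a4 in B16F0 (0.11 without control replicate 1 and 0.068 without SX-682 replicate 1) and the fall of Slc30a5 in B16F10 (0.097 without control replicate 1).

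Of 11 other Slc39 importers, 9 were tested. In MelanA Slc39a3 and Slc39a7 rose and Slc39a9 fell, in B16F0 Slc39a3, Slc39a4 and Slc39a11 rose and Slc39a9 fell, and in B16F10 Slc39a3 rose and Slc39a1, Slc39a5, Slc39a9 and Slc39a13 fell. Of all genes, 23.4% and 24.7% rose and fell in MelanA, 25.1% and 25.0% in B16F0 and 25.5% and 25.3% in B16F10, and nothing is read from these counts. The medians were -0.05, -0.04 and -0.19 in MelanA, B16F0 and B16F10. Slc39a1, the importer with the highest untreated level per length, had a log2 fold change of -0.14 in B16F10 (adjusted p = 0.00015, edgeR) and of -0.05 and -0.04 in MelanA and B16F0, where it did not pass. Slc39a11, the next in level, rose by 0.39 in B16F0. Slc39a5 was at 0.612 and 0.626 CPM in the B16F10 controls and at 0.280 and 0.103 CPM with SX-682, a change of -1.68 (adjusted p = 0.0028) that did not pass without B16F10 SX-682 replicate 2 (-1.14, adjusted p = 0.068) and was -2.58 without replicate 1. Other calls were lost without single libraries too: Slc39a7 in MelanA without SX-682 replicate 1 (adjusted p = 0.14), Slc39a13 in B16F10 without SX-682 replicate 1 (0.061), and Slc39a3 in B16F10 without control replicate 2 (0.40) or SX-682 replicate 1 (0.22), with DESeq2 (0.073) and without the count filter (0.086). Slc39a4 in B16F0 was 0.99 with all libraries, 0.60 without control replicate 1 (adjusted p = 0.18), 1.49 without control replicate 2 and 0.90 without SX-682 replicate 1 (0.051).

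Among 4 other genes known to respond to MTF1, 2 rose in every line, where 23.4%, 25.1% and 25.5% of all genes rose in MelanA, B16F0 and B16F10. The other 2 fell in MelanA, where 24.7% of all genes fell. These genes were chosen with earlier results of these data known, and nothing is read from their counts. Ndrg1, which is also known to respond to hypoxia and stress, was at 70.7 and 73.8 CPM in the B16F10 controls and at 153.3 and 153.5 CPM with SX-682. Its log2 fold change was 0.42, 0.67 and 1.09 in MelanA, B16F0 and B16F10 (adjusted p = 2.5e-13, 2.2e-17 and 2.4e-22, edgeR), and it differed among the lines (adjusted p = 4.0e-13). Selenow, which encodes a small selenoprotein, rose by 0.36, 0.75 and 0.81. Csrp1, a LIM domain protein, and Gclc, the catalytic subunit of the first enzyme of glutathione synthesis, fell in MelanA by 0.25 and 0.27 and did not pass in the B16 lines. The medians of the 4 genes were 0.05, 0.34 and 0.43.

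Metallothioneins bind copper too, and of 10 genes of copper handling 9 were tested. In MelanA Slc31a1, Ccs and Atp7b rose and Atp7a and Atox1 fell, in B16F0 Ccs rose and Slc31a1, Atp7a and Atox1 fell, and in B16F10 Ccs rose and Slc31a1, Slc31a2, Atp7a and Atox1 fell. Nothing is read from these counts of 9 genes either, beside shares of all genes of 23.4% to 25.5% for rises and 24.7% to 25.3% for falls. The rise of Ccs in B16F0 (0.13) did not pass without the count filter (adjusted p = 0.11), when replicate number was added as a block (0.051), without B16F0 control replicate 2 (0.36) or SX-682 replicate 1 (0.34), or without MelanA SX-682 replicate 1 (0.052) or 2 (0.053) or B16F10 control replicate 1 (0.052) or 2 (0.052). The copper importer Slc31a1 had log2 fold changes of 0.14, -0.16 and -0.49 in MelanA, B16F0 and B16F10, and the copper chaperone Atox1 of -0.25, -0.36 and -0.18. The medians of the 9 genes were -0.07, -0.13 and -0.18. Genes of these lists other than Slc30a2, Slc30a3, Slc39a5, Ndrg1 and the 2 of highest level per length in each list are named after their values were seen.

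**Figure D5:**
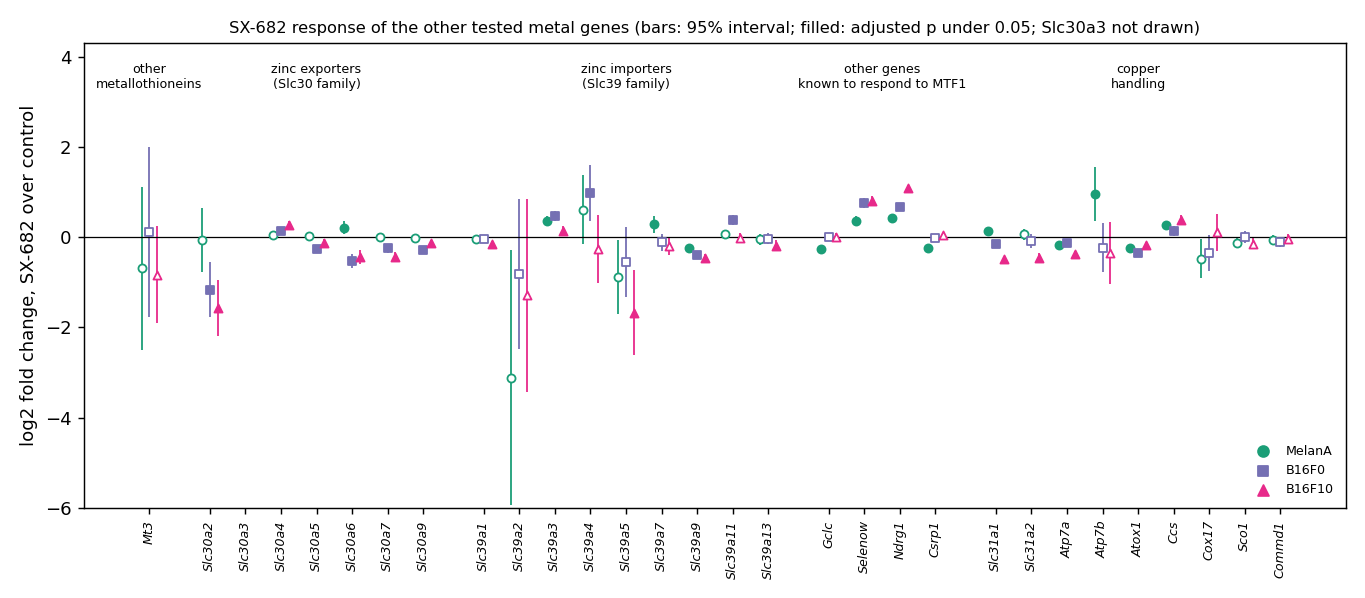
Log2 fold change, SX-682 over control, with its 95% interval, of the other tested metallothionein, zinc transport, MTF1-responsive and copper genes in MelanA (circles), B16F0 (squares) and B16F10 (triangles), where filled symbols had an adjusted p under 0.05. Ndrg1 reaches 1.09 and Slc30a2 -1.57 in B16F10, and Slc30a3, with 0 counts in both B16F0 controls, is not drawn.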

How the data were processed

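RNA-seq libraries of mouse MelanA, B16F0 and B16F10 cultures (2 controls and 2 with SX-682 for each line) were analysed. The authors deposited whole-number read counts per gene without normalization, and the submitters' processing notes name cutadapt, STAR, DESeq2 and build mm10. The counting program and its use of strand are not given in the sources used here. Of the 34513 genes, 33821 had the same versioned identifier in GENCODE M21, all with the same coordinates.

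Counts were scaled by TMM and tested with edgeR 4.0.16 (R 4.3.3) by the quasi-likelihood test in 1 fit over all 12 libraries and 6 groups, after edgeR's expression filter (18338 genes), with 0.125 as the prior count. P-values were adjusted by Benjamini-Hochberg over all genes tested, with a threshold of 0.05. The fit had 6 residual degrees of freedom and a common biological variation of 2.78%. Tests and intervals also used prior degrees of freedom, estimated across all genes tested, with a median of 21.9. An exact permutation test of 2 against 2 libraries cannot go below p = 0.333. CPM are TMM-scaled. The text calls a gene risen or fallen when it passed. Standard errors and 95% intervals come from the F statistic. A floor of 3 counts per library was used. The fits of the SX-682 response within a line were run on simulated counts with known changes, and the comparisons between lines were not.

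Promoter windows came from RefSeq (GRCm38.p6, the coordinates of mm10), with 5 of the 7 genes matched, and transcripts from GENCODE M21. The members and all gene lists were chosen with earlier results of these data known. Named are all 7 members, list genes with adjusted p under 0.05 and a log2 fold change of at least 1 in size in any line, the 2 genes of highest untreated level per length in each list, and for each member the 2 genes of highest Pearson r with a mean log2 CPM of at least 1. A gene that this rule names for Mt1 is not reported here.

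Replicate numbers are shared between the treatments of a line. Their deviations from the group means correlated at -0.17 in MelanA, -0.098 in B16F0 and -0.099 in B16F10 over 9909 genes, so the numbers were not used as pairs. Alternatives were DESeq2 1.42.0, limma 3.58.1 voom, RLE scaling, scaling without the 50 highest genes, omitting the filter, requiring 10 counts in every library, fitting lines separately, adding replicate number as a block (over all libraries or within lines) and leaving out each library.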

Additional observations from a re-analysis of the deposited data

Results flagged for a closer look

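The response to SX-682 differed among the 3 lines for 6 of the 7 genes, by edgeR's F-test of the difference itself with Benjamini-Hochberg adjustment. The same test passed for 47.4% of all genes tested, so nothing is read from this count. The highest minus the lowest of the 3 log2 fold changes was 1.45 for Mt1 (adjusted p = 7.1e-20), 2.86 for Mt2 (5.0e-13), 1.47 for Slc30a1 (1.8e-12), 0.89 for Slc39a10 (1.2e-14), 0.28 for Slc39a14 (2.1e-06) and 0.28 for Slc39a6 (3.5e-05). For Mt1 the direction differed too, since it rose in MelanA and B16F10 and fell slightly in B16F0. That fall did not pass with DESeq2 (-0.10, adjusted p = 0.13). For Mt2 the test among the 3 lines did not pass with limma voom (adjusted p = 0.067).

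Among the other named metal genes, this range was 0.67 for Ndrg1 (adjusted p = 4.0e-13), 0.62 for Slc31a1 (2.6e-12), 0.45 for Selenow (5.4e-06), 0.40 for Slc39a11 (6.6e-05), 0.30 for Slc30a5 (2.7e-05), 0.30 for Csrp1 (5.3e-09), 0.23 for Slc30a4 (0.0045) and 0.18 for Atox1 (0.010). It was 1.51 for Slc30a2 (0.023). The same F-test did not pass for Slc39a5 (range 1.13, adjusted p = 0.28), Mt3 (0.94, 0.78) or Slc39a1 (0.10, 0.073). The fitted range of 6.17 for Slc30a3 (0.050) rests on 0 counts in both B16F0 controls and at most 1 in each B16F10 library, and it is no measure of size. What sets these differences was not tested. Groups of 2 libraries are too small for a test of single outlying libraries.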

How the results depend on the processing

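The numbers of genes and of members called stayed within 1.5 times the main count under every alternative run. Counted over pairs of a result of the 7 genes and an alternative, 21 pairs lost a call, 21 gained one, 12 changed sign and 1315 kept direction and call. Leaving out single libraries gave 7455 to 8964 genes called in MelanA (main 8831), 7920 to 9302 in B16F0 (9187) and 8374 to 9448 in B16F10 (9321), with 4 to 6, 4 to 5 and 6 members among them. The rises of Mt1 and Slc30a1 in MelanA and B16F10, of Slc30a1 in B16F0, of Slc39a14 in MelanA and of Mt2 in B16F10 and the falls of Slc39a10 in both B16 lines passed under every alternative that gave a value. Mt2 in B16F0 passed in 6 of 20 settings, with log2 fold changes of 0.23 to 0.36, and had no value where 10 counts were required in every library. Other scalings moved the median of all genes by at most 0.033 on the log2 scale in size (-0.033).

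With replicate number added as a block, the log2 fold change of Mt1 was 0.92, -0.12 and 1.34 in MelanA, B16F0 and B16F10, and 8698, 9055 and 9218 genes and 6, 4 and 6 members were called. It added a call for Slc39a6 between untreated B16F0 and MelanA (adjusted p = 0.039), which made 7 members there in place of 6, and changed no other call of a member. Fitted within lines, the block gave 8824, 9150 and 9302 genes. A crossed pairing in MelanA, chosen after seeing the data, gave 8761 genes and 5 members called.

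Results that changed sign had not passed, and neither did the changed value. Leaving out single libraries gave -3.71 to 2.66 for the Mt2 difference between B16F10 and MelanA (1.72 with all libraries), -0.09 to 0.04 for the Mtf1 difference between the B16 lines (-0.02), -0.06 to 0.00 for Slc39a6 in B16F0 (-0.03) and -0.02 to 0.06 for Slc39a14 there (0.02). The Slc39a14 difference between the B16 lines (0.01) was -0.03 to 0.04 without single libraries and -0.01 with DESeq2, RLE scaling or 10 counts in every library. For list genes in B16F10, the ranges were -0.88 to 0.23 for Atp7b (-0.35), -0.68 to 0.17 for Slc39a4 (-0.26), -0.10 to 0.05 for Slc39a11 (-0.02), -0.03 to 0.04 for Gclc (0.01) and -2.46 to 2.50 for Slc30a3 (0.05, and -0.00 with a block within lines). In B16F0 they were -0.02 to 0.01 for Csrp1 (-0.01, and 0.01 with DESeq2, RLE scaling or 10 counts in every library), -0.03 to 0.03 for Gclc (0.00, and -0.00 without a filter), -0.33 to 0.79 for Mt3 (0.11), -0.06 to 0.07 for Sco1 (0.01) and -0.08 to 0.01 for Slc39a13 (-0.03). In MelanA they were -0.13 to 0.02 for Commd1 (-0.07), -0.46 to 0.52 for Slc30a2 (-0.06, and 0.02 with limma voom), -0.01 to 0.04 for Slc30a7 (0.01), -0.03 to 0.01 for Slc30a9 (-0.01) and -0.14 to 0.05 for Slc39a13 (-0.05). The cause was not tested. Mt2 in MelanA rests on at most 21 counts in a library.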
